A study of Mus musculus with 2 samples.

Results

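Antibody variable genes, the V segments that encode most of the antigen-binding part of an antibody, were followed in plasma cells from inflamed mouse colon. Every gene of the expression matrices whose symbol begins with Ighv (heavy chain) or Igkv (kappa light chain) was taken, which gave 345 of 32285 genes, 185 Ighv and 160 Igkv. The samples were immune cells that had entered the colon of C57BL/6 mice during experimental colitis, profiled as single cells with 10x 3′ v3.1 chemistry. There were 2 libraries, 1 labelled CKO and 1 labelled WT, and the series concerns loss of RPA1 and its effect on T cells. Of the colitis agent, the number and age of the mice behind a library, the deleted exons and the Cre driver, nothing is stated by the sources at hand. Each label stands for a lone library, so the groups were not tested against each other, and the intervals below are 95% intervals that cover counting error only.

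A B cell builds its heavy chain from a V, a D and a J segment and its light chain from a V and a J segment, and daughters of that cell inherit the same choice. One segment per chain is normally expressed in a cell, so the V segment acts as a label of descent, although unrelated cells can choose the same one. Plasma cells are the antibody-secreting end stage of this lineage, and in the gut most of them secrete IgA joined into dimers by the J chain.

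The sequences below are those of the segments on which the results turn, from the GENCODE M21 annotation of GRCm38 (mm10), written 5′ to 3′ on the coding strand. Each is the last 297 to 299 bases of the germline coding part. The start was set by length at a codon boundary, not at the end of the leader. The first 3 are the heavy segments that separated the libraries most: Ighv7-3, the most used in the CKO library, Ighv1-81, the most used in the WT library, and Ighv9-1, found in the WT library alone among clear calls. They begin at coding bases 64 of 361, 55 of 351 and 55 of 351. Capitals mark the last in-frame cysteine codon, the conserved cysteine that precedes the junction with D and J, and 10, 6 and 6 germline bases follow it.
Ighv7-3: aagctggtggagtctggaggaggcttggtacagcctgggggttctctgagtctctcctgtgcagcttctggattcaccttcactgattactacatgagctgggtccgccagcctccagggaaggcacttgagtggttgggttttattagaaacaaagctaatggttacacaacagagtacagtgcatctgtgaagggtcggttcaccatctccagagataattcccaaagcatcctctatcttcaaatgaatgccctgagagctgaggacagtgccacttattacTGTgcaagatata
Ighv1-81: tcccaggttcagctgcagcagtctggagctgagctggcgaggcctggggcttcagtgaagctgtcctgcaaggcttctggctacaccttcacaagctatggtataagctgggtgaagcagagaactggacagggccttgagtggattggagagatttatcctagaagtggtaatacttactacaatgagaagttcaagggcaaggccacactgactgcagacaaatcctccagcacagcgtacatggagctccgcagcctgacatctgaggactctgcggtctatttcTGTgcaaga
Ighv9-1: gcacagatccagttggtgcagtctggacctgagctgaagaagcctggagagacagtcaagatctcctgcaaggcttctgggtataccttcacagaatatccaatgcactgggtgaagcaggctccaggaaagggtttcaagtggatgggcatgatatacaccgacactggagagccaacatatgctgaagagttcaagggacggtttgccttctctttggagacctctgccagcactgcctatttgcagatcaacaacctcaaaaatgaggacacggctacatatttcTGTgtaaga
Ighv7-3 (ENSMUSG00000076652) lies on the minus strand at chr12:114153180-114153644, Ighv1-81 (ENSMUSG00000094689) on the minus strand at chr12:115920279-115920712 and Ighv9-1 (ENSMUSG00000096805) on the minus strand at chr12:114093928-114094358, each spanning a leader exon, an intron and a V exon. Ighv7-3 shared 59.8% of aligned bases with Ighv1-81 and 60.4% with Ighv9-1, and Ighv1-81 shared 66.4% with Ighv9-1.

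The next 2 are the kappa segments most used in the CKO library (Igkv1-110) and in the WT library (Igkv1-117), shown because they are near-copies of each other. Both begin at coding base 61 of 359. Capitals mark the 10 bases at which they differ, and the whole coding parts are 97.2% identical.
Igkv1-110: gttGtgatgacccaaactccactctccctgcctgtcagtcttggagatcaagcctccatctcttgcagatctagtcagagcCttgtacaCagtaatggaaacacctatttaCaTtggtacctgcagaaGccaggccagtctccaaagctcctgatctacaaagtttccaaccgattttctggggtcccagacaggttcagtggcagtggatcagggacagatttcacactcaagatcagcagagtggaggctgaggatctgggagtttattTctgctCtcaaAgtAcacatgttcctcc
Igkv1-117: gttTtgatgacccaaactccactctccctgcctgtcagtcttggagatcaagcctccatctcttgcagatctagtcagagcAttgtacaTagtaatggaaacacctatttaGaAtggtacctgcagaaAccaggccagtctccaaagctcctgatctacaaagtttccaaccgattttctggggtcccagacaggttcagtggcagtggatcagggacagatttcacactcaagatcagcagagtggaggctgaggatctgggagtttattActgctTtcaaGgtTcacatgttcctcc
Igkv1-110 (ENSMUSG00000093861) lies on the plus strand at chr6:68270485-68271267 and Igkv1-117 (ENSMUSG00000094335) on the plus strand at chr6:68121046-68121827. Despite the likeness the counts kept them apart. In the 86 CKO cells called for Igkv1-110, 12 UMIs fell on Igkv1-117 and 4176 on Igkv1-110, or 0.287% of the pair's UMIs, and in the 20 WT cells the share was 2.73%, of which 28 of 30 UMIs came from 1 cell. In the 34 CKO cells called for Igkv1-117, 4 UMIs fell on Igkv1-110 (0.241%), and in the 22 WT cells all 21 such UMIs (1.39%) came from 1 cell. Across the segments named in the text, the nearest other segment shared 76.9 to 97.7% of bases for 17 Ighv (median 95.4%) and 85.0 to 97.5% for 14 Igkv (median 95.7%). Reads between near-copies may be split or dropped in counting, and levels of such segments are uncertain to that extent.

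The libraries held 11311 barcodes and 57740083 UMIs (CKO) and 2972 barcodes and 18627050 UMIs (WT), where a UMI is a counted transcript molecule, and 6 barcodes occurred in both. After barcodes with fewer than 200 genes or over 20% mitochondrial UMIs were left out, 11155 CKO and 2925 WT cells remained, with medians of 3362 and 4135 UMIs. Levels are given as CPM, the UMIs of a gene per 1000000 UMIs of the cells named. Rpa1, the gene named by the series, stood at 44.1 CPM (179 UMIs) in the T cell gate of the CKO library and 42.4 CPM (79 UMIs) in that of the WT library, and at 13.96 and 13.8 CPM in plasma cells. A 3′ count outside a deleted exon checks no deletion, so the libraries are named here only by their labels.

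Plasma cells were taken as cells with at least 20 UMIs of Jchain (the J chain) and at least 5 UMIs of Mzb1 and Xbp1 together, an endoplasmic reticulum chaperone partner and the transcription factor of the secretory programme. The gate held 604 CKO cells, 5.41% of the library (5.002 to 5.85), and 330 WT cells, 11.3% (10.2 to 12.5). The gated cells carried other plasma cell markers to differing extents. Sdc1 (syndecan-1) had a UMI in 86.8% of CKO and 83.3% of WT gated cells, Tnfrsf17 (the survival receptor BCMA) in 74.0 and 69.1%, and Igha and Igkc in 100% of both. Prdm1 had a UMI in 67.7 and 60.3%, and Irf4 in 45.0 and 46.7%. Of the 11 markers listed, Irf4 alone stood lower than in the B cells described below, at 53.0 against 86.6 CPM (CKO) and 53.7 against 96.6 CPM (WT). Igkc is also a B cell transcript, at 3925 (CKO) and 7770 CPM (WT) in those B cells. The median depth of the gated cells was 17272.5 UMIs in the CKO library and 20573.5 in the WT library. The lower edge of the gate was filled unequally, since 1 CKO cell and 14 WT cells had 20 to 29 Jchain UMIs, and 3 CKO and 22 WT cells lay just outside with 10 to 19. Markers of other cells differed between the gated cells too. The 4 neutrophil markers summed to 1392 CPM in CKO and 152 CPM in WT plasma cells, the 3 macrophage markers to 102 and 9.54 CPM, the 4 T cell markers to 17.5 and 87.8 CPM and the 6 B cell markers to 2199 and 2677 CPM. Their part in the results below was not tested.

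Variable segments were a small share of plasma cell RNA, 0.294% of UMIs in the CKO library and 0.271% in the WT library, where the constant gene Igha alone had 121694 and 113964 CPM. The chemistry reads transcripts from their 3′ end and the V segment lies at the 5′ end. A gated CKO cell held a median of 14 Ighv and 25 Igkv UMIs, and a WT cell 12.5 and 26. Of the 345 genes, 157 had a UMI in CKO plasma cells and 135 in WT plasma cells, and 168 had none in either. The annotation lists 213 as V genes, 130 as V pseudogenes and 2 under a further immunoglobulin type. The pseudogenes together drew 55 UMIs of 31213 in CKO and 28 of 17632 in WT plasma cells.

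A segment was called clear in a cell when it had at least 5 UMIs and at least 50% of the UMIs of its chain, with no tie. A clear Ighv segment was found in 513 CKO cells (84.9%, 81.8 to 87.7) and 231 WT cells (70.0%, 64.7 to 74.9). A clear Igkv segment was found in 524 CKO cells (86.8%, 83.8 to 89.4) and 234 WT cells (70.9%, 65.7 to 75.8). Most called cells held 1 segment and nothing else of that chain: all Ighv UMIs lay on 1 segment in 86.5% of called CKO cells and 81.8% of called WT cells, and all Igkv UMIs in 71.2 and 62.4%. The uncalled cells were shallower, most of all in the WT library. Cells without a clear Ighv segment had a median of 14112 UMIs and 388 Jchain UMIs in the CKO library, against 17777 and 786 in called cells. In the WT library they had 5900 UMIs and 100 Jchain UMIs, against 22061 and 1144 in called cells. The B cell gene Ms4a1 (CD20) had a UMI in 15.4% of uncalled and 11.5% of called CKO cells, and in 43.4% of uncalled and 12.1% of called WT cells.

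Some of the missing kappa calls were cells of the other light chain. Cells with more lambda than kappa constant UMIs numbered 42 in the CKO library (6.95%, 5.06 to 9.28) and 24 in the WT library (7.27%, 4.72 to 10.6), and 39 and 24 of them had no clear Igkv segment. Among the remaining cells a clear Igkv segment was found in 92.7% (CKO) and 76.5% (WT). No doublet caller was run. Cells with a second segment of at least 5 UMIs and 20% of the chain were counted instead: 5 CKO and 9 WT cells had 2 Ighv segments, 21 and 8 had 2 Igkv segments, and 22 and 13 had a second segment of either chain.

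Free antibody RNA was looked for in T cells and neutrophils, which do not make antibody. Both sets were taken from cells outside the plasma gate and without Cd79a, so barcodes with much plasma cell RNA were left out beforehand. The values therefore cannot show how often such RNA gives a call within the plasma gate. None of 562 CKO and 282 WT T cells, and none of 1690 CKO and 137 WT neutrophils, met the call for either chain. Igkv segments stood at 1732 CPM in CKO and 1703 CPM in WT plasma cells, at 3.69 and 5.37 CPM in T cells and at 5.47 and 8.27 CPM in neutrophils. Ighv segments stood at 1213 and 1009 CPM in plasma cells, 1.23 and 2.15 CPM in T cells and 4.03 and 6.20 CPM in neutrophils. With every cell thinned to 1000 UMIs, an Igkv UMI was present in 69.6% of CKO and 59.3% of WT plasma cells, but in 0.551 and 0.545% of T cells and 0.723 and 0.854% of neutrophils. Unthinned, the shares were 93.2 and 81.8% in plasma cells, 2.31 and 3.55% in T cells (median depths 5209 and 5198 UMIs) and 2.25 and 2.92% in neutrophils (2990 and 2307 UMIs).

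Heavy chain usage differed between the libraries in the segment at the top. Ighv7-3 was the clear segment of 93 of 513 CKO cells (18.1%, 14.9 to 21.7) and of 4 of 231 WT cells (1.73%, 0.474 to 4.37). Its UMIs numbered 3858 in CKO and 256 in WT plasma cells, a log2 ratio of CPM of 3.21 (3.03 to 3.40). This interval, like every interval of a CPM ratio below, treats UMIs as independent draws. Many UMIs come from the same cell, so all these intervals are too narrow. The 93 CKO cells held between 5 and 119 Ighv7-3 UMIs with a median of 38, and the 4 WT cells held 51, 52, 67 and 85. The segment was thus rare in the WT library but strongly expressed in the few cells that used it, and the ranges of the 2 libraries overlap. Ighv7-3 was one of 4 annotated Ighv7 genes, and the family took 18.7% of CKO and 1.73% of WT calls.

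**Figure D1:**
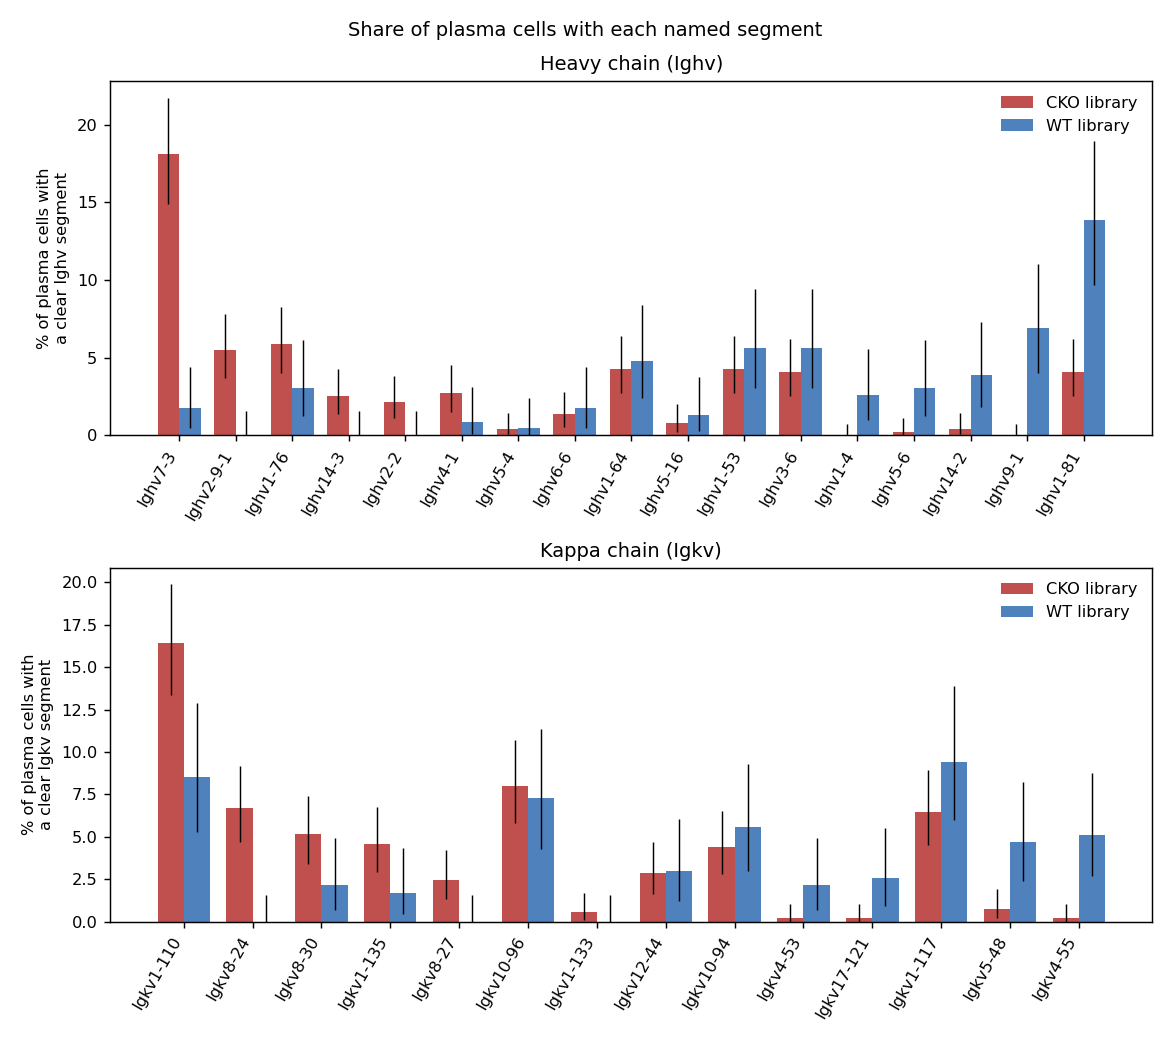
Percent of plasma cells with a clear segment of the chain that used each named Ighv segment (upper panel) and Igkv segment (lower panel), CKO library in red and WT library in blue, ordered by the difference between them. Bars are shares and lines are exact 95% intervals for counting error; Ighv7-3 stands at 18.1% and 1.73%, and Ighv1-81 at 4.09% and 13.9%.

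Ighv1-81 led the WT library. It was clear in 21 CKO cells (4.09%, 2.55 to 6.19) and 32 WT cells (13.9%, 9.67 to 19.0), with 302 and 681 UMIs and a log2 ratio of -1.88 (-2.08 to -1.68). Per clear cell its UMIs ran from 6 to 32 with a median of 13 in CKO cells, and from 5 to 69 with a median of 18 in WT cells. The libraries stood apart in the number of cells, while the UMIs per cell overlapped over most of their range.

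Of the Ighv segments, 20 were clear in the CKO library alone and 6 in the WT library alone, most of them in few cells. The called cells numbered 513 and 231, and more called cells give more such segments. At 231 called cells, 53.2 segments were expected from the CKO library and 53 were seen in the WT library. Ighv9-1 was clear in 0 CKO cells and in 16 WT cells (6.93%, 4.01 to 11), with 0 and 655 UMIs. With the CKO sum set at a floor of 3 UMIs that is 356-fold lower, a one-sided limit. The wider 2-sided interval of the log2 ratio ends at -8.17. Both treat UMIs as independent draws. The 16 clear WT cells held 6 to 112 Ighv9-1 UMIs each, so 1 further cell would pass the floor, and both limits are too strict. On the same floor of 3 counts, 0 cells allows up to 0.585% of the called CKO cells, and the 2-sided exact interval ends at 0.717%. In the other direction Ighv2-9-1 was clear in 28 CKO cells (5.46%, 3.66 to 7.79) and 0 WT cells, with 544 and 0 UMIs. On that floor it was 111-fold higher, with a 2-sided interval of the log2 ratio from 6.49 upwards, limits too strict for the same reason. Here a count of 0 allows up to 1.30% of called WT cells, and the 2-sided exact interval of the WT share ends at 1.58%, below the CKO interval. Ighv14-3 was clear in 13 CKO and 0 WT cells (223 and 3 UMIs) and Ighv2-2 in 11 and 0 (148 and 1 UMIs), while Ighv1-4 was clear in 0 CKO and 6 WT cells (0 and 62 UMIs). The intervals of the cell shares overlap for Ighv14-3 and Ighv2-2, and for Ighv1-4 they run up to 0.717% in CKO and from 0.959% in WT cells, without meeting.

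The remaining named heavy segments were clear in cells of both libraries. Ighv1-76 was clear in 30 CKO cells (5.85%, 3.98 to 8.24) and 7 WT cells (3.03%, 1.23 to 6.14), Ighv1-53 in 22 (4.29%) and 13 (5.63%), Ighv1-64 in 22 (4.29%) and 11 (4.76%), and Ighv3-6 in 21 (4.09%) and 13 (5.63%). The intervals of both libraries overlap for each of these 4. Ighv14-2 was clear in 2 CKO cells (0.390%, 0.0472 to 1.40) and 9 WT cells (3.90%, 1.80 to 7.27), and Ighv5-6 in 1 (0.195%, 0.00494 to 1.08) and 7 (3.03%, 1.23 to 6.14), with intervals that do not overlap. In all, 67 Ighv segments were clear in a CKO cell and 53 in a WT cell, 47 of them in both libraries.

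The same held family by family, where a family is a set of V segments of like sequence. The large Ighv1 family took 39.6% of CKO calls (35.3 to 44.0) and 53.2% of WT calls (46.6 to 59.8). Ighv2 took 10.7% (8.18 to 13.7) and 2.60% (0.959 to 5.57), and Ighv9 took 1.56% (0.676 to 3.05) and 8.66% (5.37 to 13.1). Ighv3 with 7.21 and 6.49%, and Ighv5 with 4.48 and 7.36%, had overlapping intervals.

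Kappa usage showed a like pattern, with Igkv1-110 at the top of the CKO library. It was clear in 86 of 524 CKO cells (16.4%, 13.3 to 19.9) and 20 of 234 WT cells (8.55%, 5.30 to 12.9). The intervals do not meet, though only narrowly. Its 4252 CKO and 1106 WT UMIs gave a log2 ratio of 1.24 (1.14 to 1.33). Per clear cell it had 6 to 164 UMIs (median 43) in CKO cells and 5 to 171 (median 51.5) in WT cells, so the cells that used it expressed it at overlapping levels. Its near-copy Igkv1-117, first in the WT library, was clear in 34 CKO cells (6.49%, 4.54 to 8.95) and 22 WT cells (9.40%, 5.99 to 13.9), with overlapping intervals.

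By ratio rather than by share, other kappa segments stood further apart than Igkv1-110. Igkv8-24 was clear in 35 CKO cells (6.68%, 4.70 to 9.17) and 0 WT cells, with 831 UMIs and 1 UMI, a log2 ratio of 8.99 (6.51 to 14.3); a count of 0 allows up to 1.28% of called WT cells. Igkv4-55 was clear in 1 CKO cell (0.191%, 0.00483 to 1.06) and 12 WT cells (5.13%, 2.68 to 8.79), with 23 and 513 UMIs and a log2 ratio of -5.18 (-5.86 to -4.58). Igkv5-48 was clear in 4 CKO and 11 WT cells, and its intervals of 0.208 to 1.94% and 2.37 to 8.26% do not meet. Igkv17-121 (1 CKO and 6 WT cells), Igkv4-53 (1 and 5), Igkv8-27 (13 and 0), Igkv8-30 (27 and 5) and Igkv1-135 (24 and 4) differed in the number of cells, but their intervals overlap.

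Other kappa segments were shared. Igkv10-96 took 8.02% of CKO calls (42 cells) and 7.26% of WT calls (17 cells), Igkv10-94 took 4.39% (23) and 5.56% (13), and Igkv12-44 took 2.86% (15) and 2.99% (7). By family, Igkv1 took 32.3% (28.3 to 36.4) of CKO and 21.4% (16.3 to 27.2) of WT calls, Igkv8 15.1% (12.1 to 18.4) and 3.85% (1.77 to 7.18), Igkv4 9.16% (6.83 to 12.0) and 20.9% (15.9 to 26.7), and Igkv5 1.53% (0.661 to 2.99) and 6.84% (3.96 to 10.9). Igkv10 (12.4 and 12.8%) and Igkv6 (11.6 and 9.40%) had overlapping intervals. In all, 57 Igkv segments were clear in a CKO cell and 51 in a WT cell, 42 of them in both.

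Usage within a library was uneven. The effective number of segments is the number that would give the same chance of drawing 2 cells alike if all were used equally, and it does not rise with the number of cells sampled. For the heavy chain it was 18.95 (15.7 to 23.8) in CKO and 24.4 (19.2 to 33.4) in WT plasma cells, and the intervals overlap. With a stricter call, at least 20 UMIs and 80% of the chain, it was 6.91 (5.41 to 9.56) in CKO and 22.5 (17.0 to 33.3) in WT plasma cells, and they do not. That call kept 37.1% of CKO and 34.2% of WT plasma cells and selects segments by their UMIs per cell. In clear CKO cells the lower quartile was 29 UMIs for Ighv7-3, while the upper quartile was 16 for Ighv1-81. The stricter values therefore do not measure usage alone. For the kappa chain under the main call, the effective number was 17.9 (15.4 to 21.4) in CKO and 27.0 (22.3 to 34.2) in WT plasma cells, and the intervals do not overlap. These intervals treat cells as independent draws, which daughters of 1 cell are not, so they are too narrow. Shannon evenness, 1 at equal use, was 0.837 (CKO) and 0.887 (WT) for the heavy chain and 0.826 and 0.892 for the kappa chain.

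The number of different segments was close once the number of cells was matched for the heavy chain. At 231 called cells, 53.2 Ighv segments were expected from the CKO library and 53 were seen in the WT library, and at 234 called cells 45.3 and 51 Igkv segments. The top 5 segments covered 38.01% of CKO and 36.8% of WT heavy calls and 42.7 and 35.9% of kappa calls. It took 9 Ighv segments in each library to reach 50% of called cells, and 7 (CKO) and 9 (WT) Igkv segments. At the other end, 15 Ighv segments in the CKO library and 13 in the WT library rested on 1 called cell each, as did 13 and 16 Igkv segments.

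**Figure D2:**
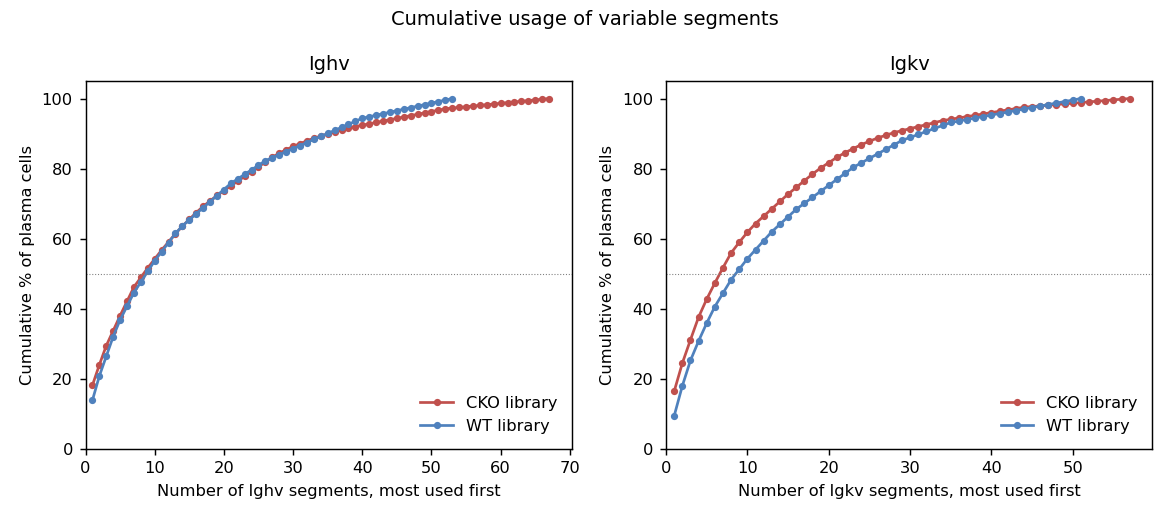
Cumulative percent of called plasma cells against the number of segments, most used first, for Ighv (left) and Igkv (right), CKO library in red and WT library in blue, with a dotted line at 50%. The heavy chain curves lie together, crossing 50% at 9 segments each, and the CKO kappa curve crosses at 7 segments, against 9 for WT.

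Evenness by UMIs gave a wider gap than evenness by cells for the heavy chain. The effective number by UMIs was 8.79 in CKO and 22.6 in WT plasma cells for Ighv, and 12.1 and 18.6 for Igkv. Ighv7-3 held 30.01% of CKO Ighv UMIs and 18.1% of called cells. Its median of 38 UMIs per clear cell stood above the 14 Ighv UMIs of the median CKO plasma cell.

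Ratios between the libraries were large for many segments. Among 108 segments with at least 50 UMIs over both libraries, 32 (29.6%) were at least 2-fold higher in CKO plasma cells and 32 (29.6%) at least 2-fold lower. Among all 8621 genes with at least 50 UMIs, 2.31% were at least 2-fold higher and 2.81% at least 2-fold lower. The median size of the log2 ratio was 1.25 over the segments and 0.25 over all genes, while the signed medians were -0.21 and -0.14. Few cells stood behind the lower ones. Of the 32 higher segments, 6 had at least 50% of their UMIs in 1 cell of the library in which they were higher, and 16 were clear in 10 or more cells there. Of the 32 lower segments, 15 had at least 50% in 1 cell of the WT library, and 4 were clear in 10 or more. Without the top cell of each gene in each library, 46 segments were at least 2-fold higher and 27 at least 2-fold lower. The WT library had fewer called cells, 231 against 513 for Ighv and 234 against 524 for Igkv. Its top cells held a larger part of a segment, a median of 44.8% against 28.3%. These counts of cells therefore do not compare the libraries on equal terms.

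In a mature antibody the heavy and the light chain come from the same cell, so pairs were examined in the 469 CKO and 211 WT cells with a clear segment of both chains. The most frequent CKO pair, Ighv7-3 with Igkv1-110, was found in 62 CKO cells (13.2%, 10.3 to 16.6) and 0 WT cells (interval up to 1.73%). The most frequent WT pair, Ighv1-81 with Igkv1-117, was found in 7 CKO cells (1.49%, 0.602 to 3.05) and 16 WT cells (7.58%, 4.40 to 12.0). Ighv1-81 with Igkv1-110 was found in 8 CKO cells (1.71%, 0.739 to 3.33) and 12 WT cells (5.69%, 2.97 to 9.72), with intervals that overlap slightly.

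**Figure D3:**
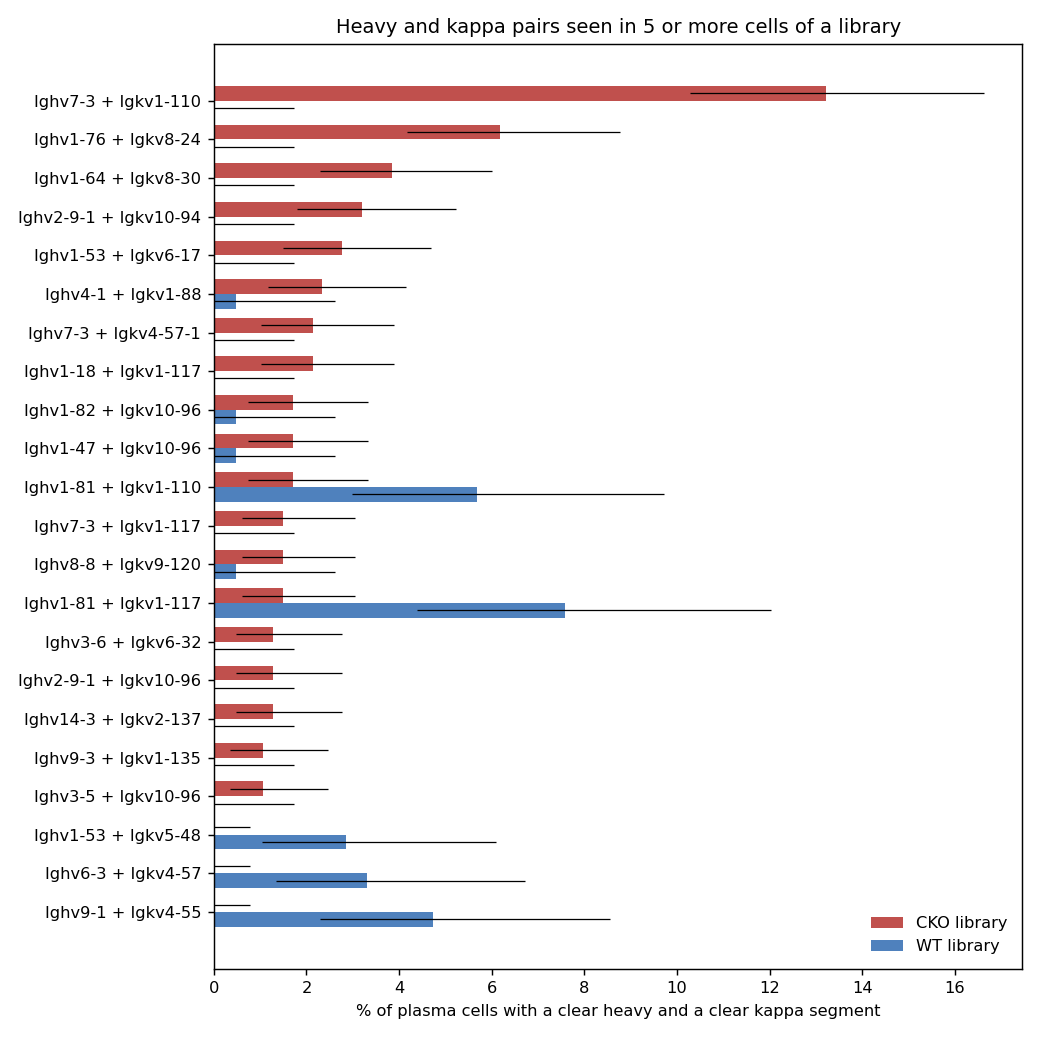
Percent of plasma cells with a clear heavy and a clear kappa segment that carried each pair, for every pair seen in 5 or more cells of a library, CKO library in red above WT library in blue, with exact 95% intervals for counting error. The upper pairs are CKO pairs led by Ighv7-3 with Igkv1-110 at 13.2%, and the WT bars are longest for Ighv1-81 with Igkv1-117 at 7.58%.

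The CKO library held 185 different pairs and the WT library 126, and at 211 cells 106.7 pairs were expected from the CKO library against 126 seen in the WT library. Cells that shared their pair with another cell of the library made up 348 CKO cells (74.2%, 70.0 to 78.1) and 118 WT cells (55.9%, 48.9 to 62.7), a share that grows with the number of cells. Pairs of 5 or more cells numbered 19 in the CKO library with 241 cells, and 5 in the WT library with 51 cells. The chance that 2 cells drawn at random carried the same pair, which does not depend on the number of cells, was 2.80% in CKO and 1.44% in WT plasma cells. If heavy and kappa segments combined independently the chance would be 0.329 and 0.180%, so the observed chance was 8.51 times (CKO) and 8.03 times (WT) higher. As an effective number this was 35.7 pairs (27.9 to 49.5) in CKO and 69.2 (48.5 to 121) in WT plasma cells, and the intervals overlap narrowly. The junction between segments was not read, so daughters of 1 cell and unrelated cells with the same pair cannot be told apart.

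Several heavy segments had 1 dominant partner. In the CKO library, 29 of 30 Ighv1-76 cells carried Igkv8-24, 18 of 22 Ighv1-64 cells carried Igkv8-30, 15 of 24 Ighv2-9-1 cells carried Igkv10-94, 11 of 12 Ighv4-1 cells carried Igkv1-88 and 13 of 22 Ighv1-53 cells carried Igkv6-17. The 86 CKO Ighv7-3 cells with a kappa call used 9 partners, with Igkv1-110 in 62 (72.1%), Igkv4-57-1 in 10 and Igkv1-117 in 7. In the WT library, Ighv9-1 carried Igkv4-55 in 10 of 16 cells, Ighv1-81 carried Igkv1-117 in 16 and Igkv1-110 in 12 of 32 cells, and Ighv1-53 carried Igkv5-48 in 6 of 13 cells.

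The same heavy segment could go with different partners in the 2 libraries. Ighv1-53 with Igkv6-17 was found in 13 CKO and 0 WT cells, and Ighv1-53 with Igkv5-48 in 0 CKO and 6 WT cells. Ighv1-64 was paired with Igkv8-30 in 18 CKO and 0 WT cells, and with Igkv10-96 in 4 of 11 WT cells. Ighv1-81 kept its main partners, with Igkv1-110 in 8 and Igkv1-117 in 7 of 21 CKO cells, and with them in 12 and 16 of 32 WT cells. Of the 4 WT Ighv7-3 cells, 1 carried Igkv6-17 and 3 had no clear kappa segment. Of 298 pairs in all, 13 were found in both libraries, 7.03% of CKO pairs and 10.3% of WT pairs. They held 58 CKO cells (12.4%) and 39 WT cells (18.5%).

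Effective numbers were also read without cells that repeat a pair. That step removes cells of the most used segments by construction, so higher and more alike values are largely set in advance. No conclusion on evenness is drawn from them. With 1 cell kept per pair, the effective number of heavy segments was 44.7 in each library, and that of kappa segments 36.4 (30.4 to 45.5) in CKO and 40.1 (31.4 to 55.4) in WT plasma cells. With only the most frequent pair of each library left out, the effective number was 32.6 (CKO) and 32.3 (WT) for the heavy chain and 24.97 and 29.8 for the kappa chain.

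Single cells held a large part of many segments. Among segments with at least 20 UMIs in the plasma cells of a library, 28 of 104 (26.9%, 18.7 to 36.5) in the CKO library and 44 of 95 (46.3%, 36.0 to 56.8) in the WT library had at least 50% of their UMIs in 1 cell. The top cell held a median of 28.3% of a segment in the CKO library and 44.8% in the WT library, with 604 and 330 plasma cells to share it. At the low end, the top cell held 3.08% of Ighv7-3 in the CKO library and 9.71% of Igkv1-117 in the WT library.

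**Figure D4:**
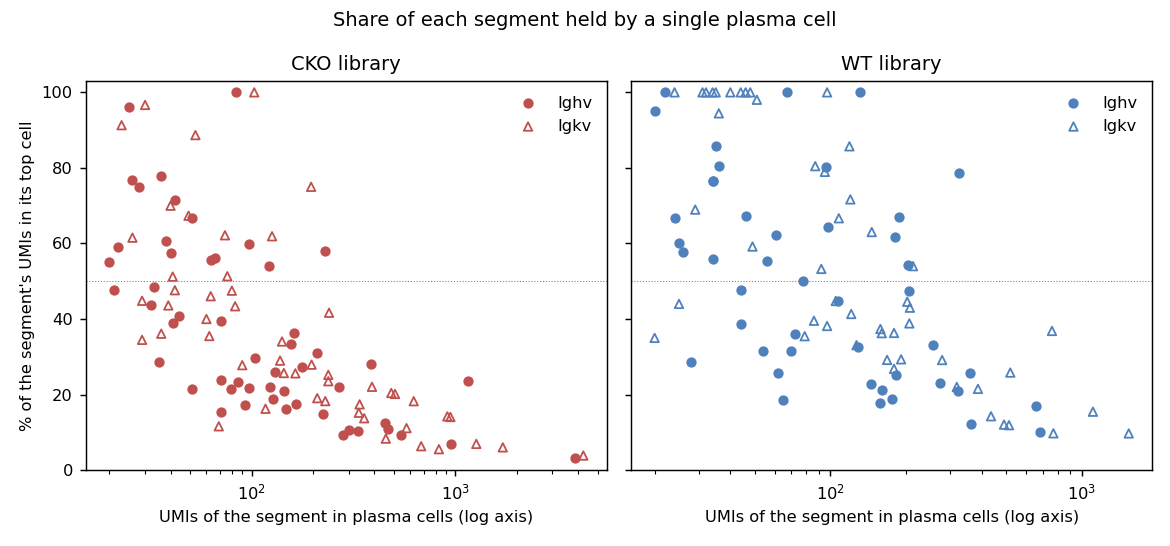
Percent of a segment's plasma cell UMIs found in its top cell (vertical) against its UMIs in plasma cells (horizontal, log axis), CKO library left and WT library right, for segments with at least 20 UMIs, filled circles for Ighv and open triangles for Igkv. Of these, 28 of 104 CKO and 44 of 95 WT segments lie on or above the dotted line at 50%.

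Some highly counted segments rested on 1 or 2 cells in at least 1 of the libraries. Ighv4-1 had 1156 UMIs in CKO plasma cells, spread over 14 clear cells with 5 to 272 UMIs each (median 81), and 325 UMIs in WT plasma cells, 256 of them in 1 of its 2 clear cells. Ighv5-4 had 122 CKO UMIs nearly all in 2 clear cells of 53 and 66 UMIs, and 131 WT UMIs all in 1 cell. Ighv5-16 had 228 CKO UMIs, 132 in 1 of 4 clear cells, and 180 WT UMIs, 111 in 1 of 3. Ighv6-6 had 209 CKO UMIs with 65 in its top cell, and 188 WT UMIs with 126 in its top cell. Igkv1-133 had 196 CKO UMIs, 147 of them in 1 of 3 clear cells, and 0 WT UMIs, and Igkv8-27 had 506 CKO UMIs over 13 clear cells and 32 WT UMIs all in 1 cell. For each of these the CPM ratio between libraries depends on those few cells.

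No single cell carried the repertoire as a whole. The cell with the most V UMIs held 0.955% of all V UMIs in CKO and 1.77% in WT plasma cells, and the top 10 cells held 6.997 and 12.7%. It took 144 CKO cells (23.8%) and 68 WT cells (20.6%) to reach 50% of V UMIs.

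The UMIs a segment gave per clear cell kept nearly the same order in both libraries. Over the 9 Ighv segments clear in at least 5 cells of each library, the median UMIs per clear cell had a Spearman rho of 0.91 between libraries, and over 12 Igkv segments 0.90. The points share the segment's sequence and the capture chemistry, so this is a description. Igkv12-44 was highest of the kappa segments in both libraries, with medians of 52 (CKO) and 74 (WT) UMIs. Ighv1-53 was low in both, with 10 and 12. How often segments were used was read over a wider set. Over 73 Ighv and 66 Igkv segments clear in either library, the number of clear cells had a rho of 0.31 and 0.36 between libraries. This set admits segments with 0 clear cells in 1 library, so these rhos cannot be set against those for UMIs per cell. These points share the annotation and the call.

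**Figure D5:**
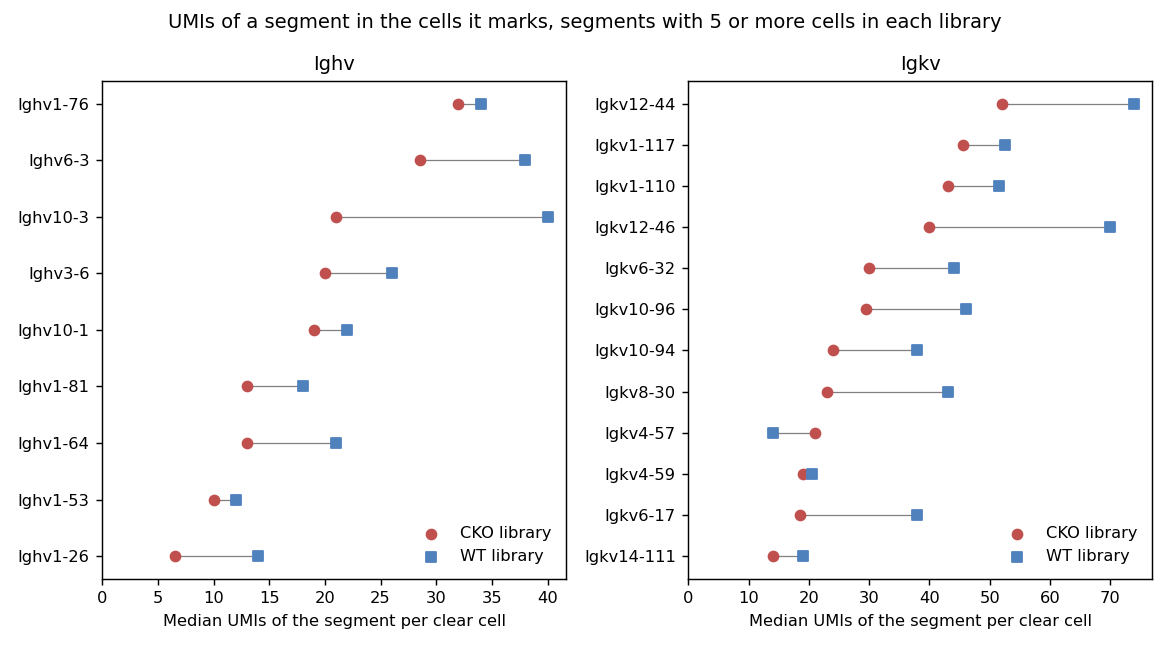
Median UMIs of a segment per cell in which it was clear (horizontal), for the 9 Ighv (left) and 12 Igkv (right) segments with 5 or more clear cells in each library, ordered by the CKO value, CKO library as red circles and WT library as blue squares. The order is nearly kept between libraries (Spearman rho 0.91 and 0.90), and the WT median is the higher for all but Igkv4-57.

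By isotype the gated plasma cells were nearly all of 1 kind. Igha, the IgA constant gene, had the most heavy constant UMIs in 570 CKO plasma cells (94.4%, 92.2 to 96.1) and 310 WT plasma cells (93.9%, 90.8 to 96.3). Ighm (IgM) led in 18 and 3 cells, Ighg2b in 11 and 10, Ighg2c in 4 and 3, Ighg1 in 0 and 4, and Ighg3 in 1 and 0. Of the 93 CKO Ighv7-3 cells, 87 were Igha and 6 Ighm cells, and all 30 Ighv1-76 cells and all 28 Ighv2-9-1 cells of that library were Igha cells. The 16 WT cells of the pair Ighv1-81 with Igkv1-117 were 13 Igha and 2 Ighm cells, with 1 of another isotype.

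B cells, the earlier stage of the lineage, were set beside plasma cells. In cells with Ms4a1 and Cd79a but no Cd3e, 3480 in the CKO library and 1012 in the WT library, V segments stood at 31.1 CPM (CKO) and 44.9 CPM (WT) for Ighv and 31.1 and 41.9 CPM for Igkv. By the plasma cell call, 1 CKO and 1 WT B cell had a clear Ighv segment, and 4 CKO and 0 WT B cells a clear Igkv segment. With a call at 2 UMIs, 30 CKO and 26 WT B cells had a clear Ighv segment, over 23 and 22 segments, and 32 and 19 had a clear Igkv segment, over 19 and 16. At 26 called cells, 20.6 Ighv segments were expected from CKO B cells and 22 were seen in WT B cells, against 17.2 and 17.9 expected from plasma cells. At 19 called cells, 13.3 (CKO) and 16 (WT) Igkv segments in B cells stood against 13.0 and 14.2 in plasma cells. The plasma cell numbers rest on calls at 5 UMIs and the B cell numbers on calls at 2 UMIs, so they are not on equal terms. These B cell calls are too few to rank segments. Ighv7-3 held 5.86% of CKO and 5.06% of WT B cell Ighv UMIs, against 30.01 and 3.90% in plasma cells. It also made up 4 of the 5 Ighv UMIs in CKO T cells and 10 of 28 in CKO neutrophils, and 0 of 4 and 0 of 3 in the WT library. At this depth Ighv7-3 expressed by B cells and free Ighv7-3 RNA cannot be told apart.

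Genes that diversify antibodies were read in the same plasma cells from a list of 20, of which 15 had at least 20 UMIs over both libraries. Their median log2 ratio was -0.58, against -0.14 over all genes with at least 50 UMIs, an unlike minimum. Rag1 and Rag2, which cut V segments during recombination, and Dntt and Igll1, which act in early B cell development, had 0 UMIs in both libraries, below a floor of 0.283 CPM (CKO) and 0.461 CPM (WT). The mismatch repair gene Msh6, the median gene of the 15, stood at 7.08 CPM in CKO and 10.6 CPM in WT plasma cells. Its log2 ratio was -0.58 (-1.08 to -0.09). An interval for 1 gene does not stand for the list, where other intervals span a ratio of no change. The 6 B cell markers were lower in CKO plasma cells too, with a median log2 ratio of -0.77. They ran from -0.22 for Cd74 to -1.89 for Ms4a1. The part of B cell RNA in the values of the diversification genes was not tested.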

How the data were processed

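UMI counts per gene and cell barcode were used as deposited by the authors; per the file headers they are whole numbers without normalization. Cell Ranger 6.0.1 stands in the matrix headers, but Cell Ranger 5.0.0 in the submitters' processing notes, beside Seurat 3.2.3 and mm10. The step that called barcodes is stated by neither. Left out were 36 CKO and 11 WT barcodes under 200 genes, and 130 and 42 over 20% mitochondrial UMIs. The T cell gate required Cd3e with Cd3d or Cd3g and no Ms4a1 or Cd79a, and the neutrophil gate at least 20 UMIs of S100a8 and S100a9, Csf3r and no Cd79a. These gates and the B cell gate took only cells outside the plasma gate. Gates, calls and numbers were computed in Python 3.11.15 with numpy 2.4.6, scipy 1.17.1 and pandas 2.3.3. Effective numbers are the inverse of the unbiased Simpson index with delta-method intervals, shares have exact Clopper-Pearson intervals, CPM ratios have exact conditional binomial intervals, and rarefied numbers are analytic. No p-value was computed. Coding sequences were cut from GENCODE M21 transcripts and compared with Biopython 1.88.

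Named per chain were the 5 segments with most clear cells in each library, the 5 largest differences in share each way, and the 3 with the largest single-cell UMI sum in each library, which gave 17 Ighv and 14 Igkv. Kappa partners and segments of extreme depth are named beside them, after their values were seen. The members, lists and gates were chosen with earlier results of these data known. The 2-fold counts, the intervals of CPM ratios and the effective numbers were tested on simulated data with independent UMIs and cells. The clear-segment call and the pairs were not tested in this way. Alternatives changed the Jchain minimum, the barcode filter, the call, the treatment of cells with 2 segments and of repeated pairs, and the UMI minima. Single genes of the antibody diversification list, and the counts of its members past 2-fold, are in part not reported here.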

Additional observations from a re-analysis of the deposited data

How the results depend on the processing

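Of 94 alternative values over 14 results, 78 stayed within the interval or 1.5 times the count of the reported value and 16 moved. The share of cells with a clear Ighv segment was 37.1% (CKO) and 34.2% (WT) with a call at 20 UMIs and 80% of the chain, 97.5 and 81.8% with any top segment, and 76.1% in WT with at least 50 Jchain UMIs. The effective number of segments in CKO plasma cells was 6.91 (heavy) and 12.7 (kappa) under the stricter call, against 22.5 and 23.7 in WT plasma cells. With 1 cell per pair it was 44.7 (CKO) and 44.7 (WT) for the heavy chain and 36.4 and 40.1 for the kappa chain, and without the most frequent pair, an alternative chosen after seeing the data, 32.6 (heavy) and 24.97 (kappa) in CKO. Under both of these the heavy chain values of the libraries were close, but both remove repeated cells by construction. The heavy chain intervals of the libraries overlapped under the main call already. Under the stricter call 46.9% of WT cells shared a pair. Segments held by 1 cell numbered 5 (CKO) and 10 (WT) at a minimum of 100 UMIs, which tests fewer segments. For the other moved values the cause was not tested. No paired analysis was possible because each group has 1 library and the libraries carry no replicate numbers. The depth of V reads limits calls to cells with at least 5 V UMIs, and a segment seen in 0 called cells may still be used in up to 0.585% (CKO) or 1.30% (WT) of heavy calls.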

Other observations

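The share of calls by position along the locus was set side by side. Segments annotated as V genes were divided by their distance from the first J segment into 3 groups of like size. The nearest heavy group, from 149 to 833 kb, held 43.9% of CKO calls (39.5 to 48.3) and 28.6% of WT calls (22.8 to 34.9), the middle group 22.6% (19.1 to 26.5) and 29.4% (23.6 to 35.8), and the farthest, from 1626 to 2570 kb, 33.5% (29.5 to 37.8) and 42% (35.5 to 48.6). The intervals overlap for the middle and farthest groups. Without Ighv7-3, left out after its values were seen, the nearest group held 31.4% (27.0 to 36.1) of CKO and 27.3% (21.6 to 33.6) of WT calls, which overlap. Ighv7-3, at 724 kb, lies in the nearest group and Ighv1-81, at 2491 kb, in the farthest. For kappa, the nearest group held 29.4% (25.6 to 33.6) of CKO and 16.2% (11.8 to 21.6) of WT calls, the middle group 17.2% (14.1 to 20.7) and 35.0% (28.9 to 41.5), and the farthest 53.3% (49.0 to 57.7) and 48.7% (42.2 to 55.3), where the intervals overlap.

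Cycling, read as a UMI of Mki67 or Top2a, was found in 31.1% of CKO plasma cells (27.5 to 35.0) and 28.2% of WT plasma cells (23.4 to 33.4). In the most frequent pair it was 12 of 62 CKO cells (19.4%, 10.4 to 31.4) and 7 of 16 WT cells (43.8%, 19.8 to 70.1), and in pairs seen once 39 of 121 (32.2%) and 26 of 93 (28.0%). Of the minor isotypes, Ighg3 had 2440 UMIs in CKO plasma cells, 2381 of them in 1 cell, and 62 in WT plasma cells. Ighg1 had 55 UMIs (5.19 CPM) in CKO and 4364 UMIs (671 CPM) in WT plasma cells, of which 1 WT cell held 2130. Iglv1, a lambda V segment, had a median of 28 UMIs in CKO and 66.5 UMIs in WT lambda cells, but also of 5 and 3 UMIs in kappa cells, where it stood at 562 and 322 CPM against 2.71 and 3.22 CPM in T cells.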
